A study of Rattus norvegicus with 4 samples.

Results

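The genes described here are 10 members of the antigen presentation pathway measured in the rat left ventricle: the invariant chain gene Cd74, the class II chain genes RT1-Ba, RT1-Bb, RT1-Da and RT1-Db1, the immunoproteasome genes Psmb8 and Psmb9, the peptide transporter genes Tap1 and Tap2, and B2m, which encodes beta-2 microglobulin. They were chosen by name, as all probe sets whose annotated gene symbol is or includes a member, which gave 24 of the 8740 probe sets that are not controls. Total RNA was hybridised to 4 oligonucleotide arrays, 1 for each of terminal heart failure, losartan-treated dTGR, dTGR and SD control. The dTGR are rats that overexpress human renin and human angiotensinogen, losartan blocks the angiotensin II type 1 receptor, and SD control is the Sprague Dawley rat. All 4 samples carry 1 shared description, of rats with both human transgenes that develop hypertension, an enlarged heart and protein in the urine and die of organ damage. The label of the terminal sample names no genotype or treatment of its own. The sources used here do not state ages, doses, how many animals lie behind an array, whether RNA was pooled or which promoters drive the transgenes. With 1 array per group there is no error between animals and no test, so every difference below is a size of change between single arrays.

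Class II molecules are pairs of an alpha and a beta chain that display peptides from the endosome to helper T cells, and in the rat they are called RT1-B and RT1-D. The invariant chain occupies their groove until they reach the endosome. These genes are abundant in dendritic cells, macrophages and B cells, are induced in other cells by interferon gamma, and depend on the coactivator CIITA, which acts through the X and Y boxes of their promoters. Class I molecules are heavy chains bound to beta-2 microglobulin that display peptides from the cytosol. Those peptides are cut by the proteasome, whose inducible catalytic subunits include the products of Psmb8 and Psmb9, and are carried into the endoplasmic reticulum by the transporter made of the products of Tap1 and Tap2. In the heart, most of the class II signal is known to come from resident and recruited immune cells, while class I is made more widely. In RNA of whole tissue, fewer cells of a type and less RNA per cell cannot be told apart.

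All 10 genes had an entry in the RefSeq promoter table of build GRCr8. In that build 8 of them, all but B2m on chromosome 3 and Cd74 on chromosome 18, lie on chromosome 20, in the rat major histocompatibility complex. The promoters of the 4 class II chain genes are shown because the promoter elements that class II genes share are known, and these genes are set against each other below. Each sequence is the 150 bases before the annotated start, 5' to 3' on the gene's strand, with matches to GATTGG (a core of the Y box, or its reverse complement CCAATC) and to ACAGATG (a core of the X box) in capitals.
RT1-Da promoter, GRCr8 chr20:4515265-4515414, plus strand: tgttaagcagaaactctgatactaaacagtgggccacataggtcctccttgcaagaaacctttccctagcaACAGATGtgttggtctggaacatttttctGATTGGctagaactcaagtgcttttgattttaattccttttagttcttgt
RT1-Db1 promoter, GRCr8 chr20:4560163-4560312, minus strand: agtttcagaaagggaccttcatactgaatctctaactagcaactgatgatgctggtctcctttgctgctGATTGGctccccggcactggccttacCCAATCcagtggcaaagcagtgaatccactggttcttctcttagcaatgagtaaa
RT1-Ba promoter, GRCr8 chr20:4576907-4577056, plus strand: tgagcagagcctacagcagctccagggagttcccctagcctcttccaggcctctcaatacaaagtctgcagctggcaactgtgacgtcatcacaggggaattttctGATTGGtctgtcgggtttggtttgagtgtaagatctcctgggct
RT1-Bb promoter, GRCr8 chr20:4604119-4604268, minus strand: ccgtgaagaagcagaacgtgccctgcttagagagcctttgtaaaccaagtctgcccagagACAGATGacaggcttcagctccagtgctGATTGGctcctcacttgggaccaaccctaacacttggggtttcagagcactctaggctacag
Matches to GATTGG on either strand were found in the windows of all 4 class II chain genes, at 44 to 81 bases before the start, and ACAGATG was found in RT1-Da and RT1-Bb, 79 and 90 bases before it. In windows from 250 bases before to 50 after the start, GATTGG occurred in 15.3% and ACAGATG in 5.20% of 27457 promoters. Cd74 held a match to neither. The class I pathway was searched for a core of the interferon-stimulated response element, 2 copies of GAAA set 2 bases apart, which Psmb8, Tap1, Tap2 and B2m held and Psmb9 did not, against 3.77% of promoters. TTCNNNGAA, a core of the interferon gamma-activated site, which reads the same on both strands, was found in Psmb8 and in no other member, against 8.68% of promoters. Both peptide transporter promoters are shown with the response element core (or its reverse complement, 2 copies of TTTC set 2 bases apart) in capitals.
Tap1 promoter, GRCr8 chr20:4668544-4668693, minus strand: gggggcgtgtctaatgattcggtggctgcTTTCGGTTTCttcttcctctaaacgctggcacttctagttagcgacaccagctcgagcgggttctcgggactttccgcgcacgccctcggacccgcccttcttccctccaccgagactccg
Tap2 promoter, GRCr8 chr20:4652297-4652446, minus strand: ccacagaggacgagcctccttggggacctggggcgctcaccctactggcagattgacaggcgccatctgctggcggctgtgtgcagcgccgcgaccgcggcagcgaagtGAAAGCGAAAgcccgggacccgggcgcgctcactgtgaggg
The class II chain promoters held no such element, and Tap1, Tap2 and Psmb8 held no GATTGG. That letter run was not particular to class II genes, since B2m held it 65 bases before its start and Psmb9 after its start. A match is a description of these letters in RefSeq sequence, not a site shown to be used. Only the letter patterns given were searched, so variants of an element went uncounted. A missing match therefore does not show that a promoter lacks the element.

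Arrays gave 1 intensity per probe set on a linear scale, and intensities under 26.0, the 40th percentile of all values, were treated as not measured and set to that floor. From 58.3% to 63.7% of probe sets lay above the floor on an array. The terminal and losartan arrays shared a chip lot, as did the dTGR and SD control arrays. Run day set the terminal array apart from the others, and fluidics protocol the dTGR array. All 17 probe sets of cardiomyocyte markers lay above the floor on all 4 arrays. The 3' to 5' signal ratio of Gapdh, which rises with RNA breakdown, was 1.28 on the terminal, 2.17 on the losartan, 1.73 on the dTGR and 1.34 on the SD control array. That of beta-actin was 1.63 on the terminal, 2.26 on the losartan, 2.07 on the dTGR and 1.46 on the SD control array, so the controls ordered the terminal and SD control arrays differently.

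Of the 24 member probe sets, 18 lay above the floor on all 4 arrays, and 3, all of RT1-Bb, on none. Of the 23 with 1 gene symbol, 20 were above the floor on at least 1 array. Probe sets made from 1 accession, such as X13044_at and X13044_g_at, share their target and are not independent. A further probe set, rc_AA859372_s_at, lists B2m beside 5 other genes, among them the ribosomal RNA genes Rn18s and Rn45s and the beta-globin gene Hbb-bs. It read 4459 in terminal heart failure, 137 in losartan-treated dTGR, 139 in dTGR and 9.08 in SD control, and its signal cannot be assigned to B2m.

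**Figure D1:**
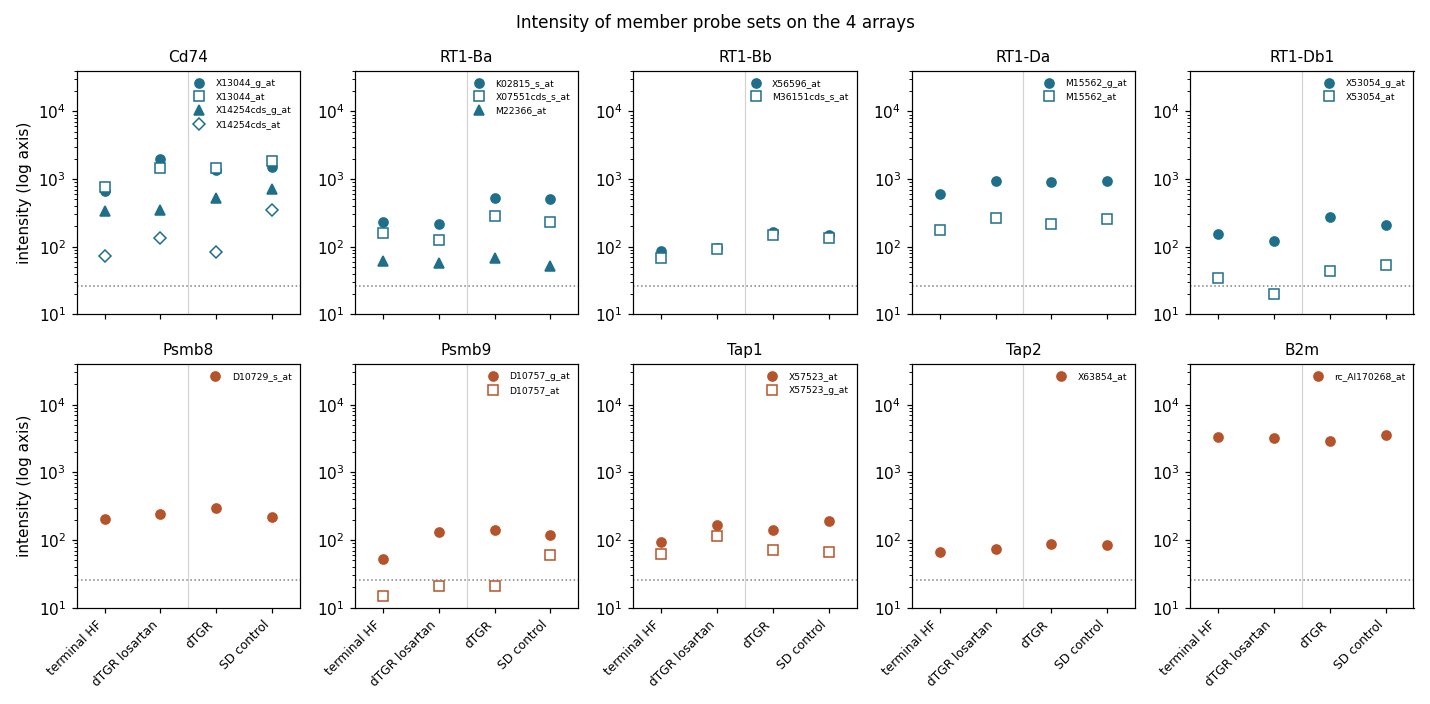
Intensity (log axis) of the 20 member probe sets with 1 gene symbol that lay above the floor on at least 1 array, in a panel per gene, with class II genes and Cd74 in the upper row and class I pathway genes in the lower row. Arrays run from terminal heart failure and losartan-treated dTGR (1 chip lot) to dTGR and SD control (the other lot, right of the grey line), each point is 1 probe set on 1 array, and the dotted line is the floor of 26.0. Terminal heart failure is lowest for all 4 probe sets of Cd74, and B2m lies between 2869 and 3633 on all arrays.

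Cd74, the invariant chain, had the lowest signal in terminal heart failure on each of its 4 probe sets. X13044_at read 766 in terminal heart failure, 1476 in losartan-treated dTGR, 1454 in dTGR and 1832 in SD control, 2.39-fold lower in terminal heart failure than in SD control. X13044_g_at read 666, 1988, 1379 and 1533 on the same arrays in that order, 2.30-fold lower in terminal heart failure than in SD control. The losartan and dTGR arrays were thus on the side of SD control for both probe sets of this accession. X14254cds_g_at read 335 in terminal heart failure, 353 in losartan-treated dTGR, 523 in dTGR and 711 in SD control, 2.12-fold lower in terminal heart failure than in SD control. X14254cds_at read 71.9 in terminal heart failure, 135 in losartan-treated dTGR, 83.3 in dTGR and 349 in SD control, 4.85-fold lower in terminal heart failure. On this accession SD control stood above the 3 other arrays, and the level after losartan was near that of terminal heart failure on one probe set and between the terminal and SD control values on the other.

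RT1-Da, the alpha chain of RT1-D, was lowest in terminal heart failure by a smaller margin. M15562_g_at read 611 in terminal heart failure, 953 in losartan-treated dTGR, 915 in dTGR and 925 in SD control, with a log2 difference of -0.60 between terminal heart failure and SD control. M15562_at read 177 in terminal heart failure, 268 in losartan-treated dTGR, 219 in dTGR and 255 in SD control, a log2 difference of -0.53. The 3 other arrays lay close together on M15562_g_at, and neither probe set reached 2-fold in any comparison.

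RT1-Db1, the beta chain of RT1-D, was low both in terminal heart failure and after losartan. X53054_g_at read 154 in terminal heart failure, 123 in losartan-treated dTGR, 273 in dTGR and 210 in SD control. The losartan array was 2.22-fold lower than the dTGR array on it, and the terminal array 1.37-fold lower than SD control. X53054_at, near the floor, read 34 in terminal heart failure, 20.0 in losartan-treated dTGR, 44.0 in dTGR and 52.9 in SD control, at least 2.04-fold lower after losartan than in SD control. On both probe sets the alpha chain RT1-Da and the beta chain RT1-Db1 thus ordered the losartan array differently, highest for RT1-Da and lowest for RT1-Db1.

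RT1-Ba, the alpha chain of RT1-B, was low on the same 2 arrays. K02815_s_at read 235 in terminal heart failure, 220 in losartan-treated dTGR, 530 in dTGR and 502 in SD control, 2.14-fold lower in terminal heart failure and 2.28-fold lower after losartan than in SD control. X07551cds_s_at read 162 in terminal heart failure, 126 in losartan-treated dTGR, 283 in dTGR and 236 in SD control. It was 2.24-fold lower after losartan than in dTGR and 1.46-fold lower in terminal heart failure than in SD control. The third probe set, M22366_at, was nearly flat, at 61.3 in terminal heart failure, 58.3 in losartan-treated dTGR, 68.2 in dTGR and 52.6 in SD control.

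RT1-Bb, the beta chain of RT1-B, was also low on the terminal and losartan arrays. Both of its probe sets above the floor were lowest in terminal heart failure. K02815_s_at and X07551cds_s_at of RT1-Ba were instead lowest after losartan. X56596_at read 87.8 in terminal heart failure, 94.7 in losartan-treated dTGR, 163 in dTGR and 149 in SD control, a log2 difference of -0.76 between terminal heart failure and SD control. M36151cds_s_at read 69.0 in terminal heart failure, 93.9 in losartan-treated dTGR, 149 in dTGR and 134 in SD control. It was 2.16-fold lower in terminal heart failure than in dTGR. The 3 probe sets of RT1-Bb under the floor read from 1.01 to 14.0.

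In the class I pathway Psmb9, an inducible catalytic subunit of the immunoproteasome, stood out as low in terminal heart failure. D10757_g_at read 52.1 in terminal heart failure, 132 in losartan-treated dTGR, 139 in dTGR and 118 in SD control. The terminal value was 2.54-fold, 2.67-fold and 2.27-fold lower than on the losartan, dTGR and SD control arrays. D10757_at lay above the floor in SD control alone, at 60.7, against 15.0 in terminal heart failure, 21.1 in losartan-treated dTGR and 21.0 in dTGR, so that SD control was at least 2.34-fold higher than each. Psmb8, another inducible subunit, had a smaller range, with 207 in terminal heart failure, 242 in losartan-treated dTGR, 302 in dTGR and 221 in SD control.

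Tap1, a subunit of the peptide transporter, was lowest in terminal heart failure on both probe sets. X57523_at read 92.4 in terminal heart failure, 167 in losartan-treated dTGR, 142 in dTGR and 189 in SD control, 2.05-fold lower in terminal heart failure than in SD control. X57523_g_at read 61.7 in terminal heart failure, 117 in losartan-treated dTGR, 70.8 in dTGR and 65.8 in SD control, 1.07-fold lower in terminal heart failure. The probe sets differed in where the losartan array lay, highest on one and second on the other. Tap2, the partner subunit, read 66.0 in terminal heart failure, 73.2 in losartan-treated dTGR, 86.4 in dTGR and 85.3 in SD control. B2m, the invariant light chain of class I molecules, had the narrowest range of the members, with 3345 in terminal heart failure, 3179 in losartan-treated dTGR, 2869 in dTGR and 3633 in SD control on rc_AI170268_at.

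Set side by side, terminal heart failure against SD control had the most members past 2-fold. A probe set counted as higher or lower when either array was above the floor and the difference was at least 2-fold. Of 20 member probe sets with 1 symbol, 8 were lower and 0 higher in terminal heart failure than in SD control, against 8.64% lower and 7.67% higher among all 5682 probe sets above the floor there. The 8 were the 4 of Cd74, K02815_s_at of RT1-Ba, both of Psmb9 and X57523_at of Tap1. Of these, D10757_at of Psmb9 was above the floor in SD control alone, so it could only be called lower. With both arrays above the floor 7 of 19 were lower, against 7.84% of all probe sets. The call of X57523_at of Tap1 ended under same-median scaling (log2 difference -0.98), quantile normalization (-0.91) and cyclic loess (-0.92), each of which left 7 lower members, and that of D10757_g_at of Psmb9 when the 60th percentile was the floor (-0.84). The median log2 difference of the 20 was -0.70, against -0.11 over all probe sets. Of the 20, 19 were below 0, with M22366_at of RT1-Ba at 0.22 as the exception. Over all 5682 probe sets 3280 were below 0. Since the dTGR rats and the terminal array are compared with the same SD control array, these comparisons are not independent. The terminal and SD control arrays also differed in chip lot and run day. In this comparison the log2 differences of probe sets that share a gene had an SD around their gene's mean of 0.51 over 791 genes, close to the differences of RT1-Da, RT1-Db1 and X07551cds_s_at of RT1-Ba and above those of Psmb8, Tap2 and B2m.

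Terminal heart failure against dTGR gave 4 lower and 0 higher of 19 member probe sets with 1 symbol (median -0.62, against -0.16 over all probe sets), with 12.0% lower and 8.43% higher among all. The lower ones were X13044_g_at of Cd74 (2.07-fold), K02815_s_at of RT1-Ba (2.25-fold), M36151cds_s_at of RT1-Bb and D10757_g_at of Psmb9. With the arrays scaled to the same median instead, 1 member was lower, D10757_g_at of Psmb9, with X13044_g_at of Cd74 at -0.76 and K02815_s_at of RT1-Ba at -0.88, and of all probe sets 804 read higher and 407 lower, in place of 516 and 737. All 13 class II and invariant chain probe sets above the floor were below 0 here, from -1.17 to -0.16. Over all probe sets 3619 of 6124 were below 0. Against the losartan array, terminal heart failure gave 2 lower and 0 higher of 19, X13044_g_at of Cd74 (2.99-fold) and D10757_g_at of Psmb9, where 7.35% of all probe sets were lower and 9.07% higher. The call of D10757_g_at was just lost with the floor at the 60th percentile (log2 difference -0.9993). The count is close to the background share, and the members' median was -0.22, against -0.08 over all.

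The dTGR and SD control arrays differed little in these genes. Of 20 member probe sets with 1 symbol, 0 were higher and 2 lower in dTGR than in SD control, against 8.69% higher and 6.16% lower among all probe sets. They were X14254cds_at of Cd74 (4.19-fold) and D10757_at of Psmb9 (at least 2.34-fold), and 2 of 20 is close to the background share. The other 3 probe sets of Cd74 had log2 differences from -0.44 to -0.15, and the members' median was 0.00, against 0.05 over all. With the same-median scaling, 320 of all probe sets were higher and 634 lower in dTGR, in place of 532 and 377, and 2 members were still lower. Between losartan-treated dTGR and dTGR, 0 of 19 were higher and 3 lower, K02815_s_at and X07551cds_s_at of RT1-Ba and X53054_g_at of RT1-Db1, against 6.09% higher and 10.7% lower among all. Scaling to the same median left 1 lower and put X53054_g_at of RT1-Db1 at -0.92, with 574 of all probe sets higher and 428 lower in place of 376 and 664. Class I pathway members had 0 in either direction there, and Tap1 X57523_g_at was 1.65-fold higher after losartan. Losartan-treated dTGR against SD control gave 5 lower and 0 higher of 20 (median -0.27, against -0.01 over all), where 5.95% of all were lower and 3.16% higher. The 5 were both probe sets of Cd74 accession X14254, K02815_s_at of RT1-Ba, X53054_at of RT1-Db1 and D10757_at of Psmb9. On X53054_at and D10757_at the losartan array lay under the floor, so both folds are bounds, and X14254cds_g_at was 2.01-fold lower. With both arrays above the floor 3 of 18 were lower, against 4.95% of all probe sets. Quantile normalization and cyclic loess each left 4 lower members.

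**Figure D2:**
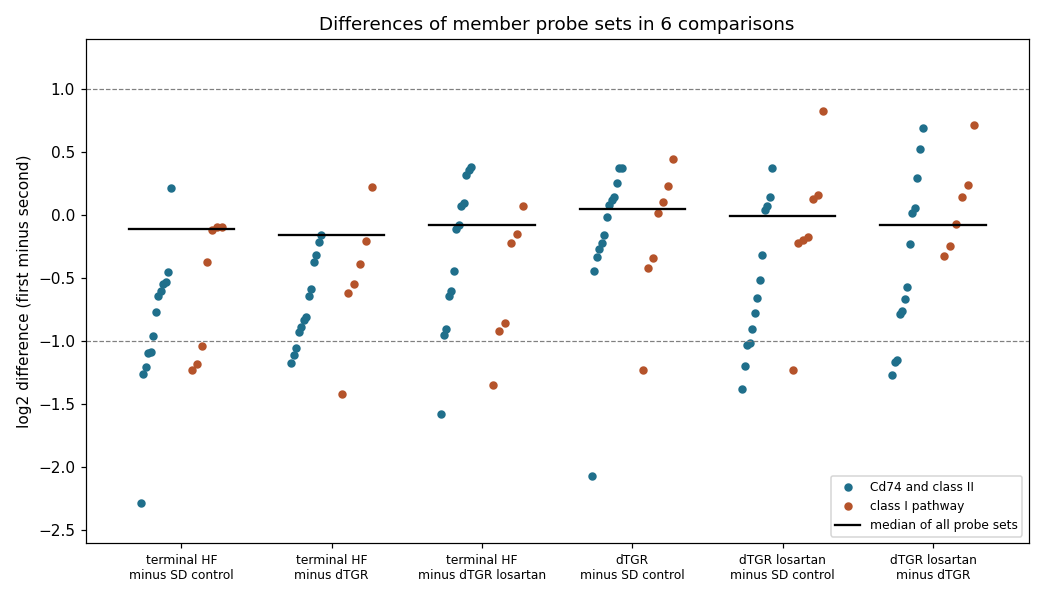
Log2 difference (first array minus second) of the member probe sets with 1 gene symbol above the floor on either array, for 6 comparisons along the x axis. Each point is 1 probe set, with Cd74 and class II genes at the left and class I pathway genes at the right of each comparison, black bars are the median of all probe sets, and dashed lines mark 2-fold. In terminal heart failure minus SD control 8 points lie under the lower dashed line and 0 above the upper, and in dTGR minus SD control 2 do and 0.

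The chip lot moved with part of these values. On 6 of 12 class II and invariant chain probe sets above the floor on all 4 arrays, both arrays of the terminal and losartan lot were lower than both arrays of the dTGR and SD control lot, against 21.0% of 4114 such probe sets over the whole array. These were K02815_s_at and X07551cds_s_at of RT1-Ba, both measured probe sets of RT1-Bb, X53054_g_at of RT1-Db1 and X14254cds_g_at of Cd74, and X53054_at of RT1-Db1, above the floor on 3 arrays, had the same order. In the class I pathway 1 of 6 had it, Tap2. The opposite order, with the terminal and losartan lot higher, was found in 0 of the 18 members, against 13.1% overall. This way of sorting the arrays was chosen after the values were seen, and chip lot and disease state cannot be told apart between lots.

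Both pairs inside a lot were also compared. Terminal heart failure and losartan-treated dTGR share a lot, and there RT1-Ba had log2 differences of 0.07 to 0.36, RT1-Db1 of 0.32 and 0.39 (the second a bound) and RT1-Bb of -0.45 and -0.11. RT1-Ba, RT1-Bb and RT1-Db1 thus did not reach 2-fold inside either lot, since in dTGR against SD control they lay between -0.27 and 0.38. The 2 members lower past 2-fold within that lot were X13044_g_at of Cd74 and D10757_g_at of Psmb9, a count close to the background share. Cd74 had log2 differences of -1.58, -0.95 and -0.90 on 3 probe sets and -0.07 on X14254cds_g_at. Psmb9 D10757_g_at had -1.35, Tap1 had -0.86 and -0.92, and RT1-Da had -0.64 and -0.60. The terminal and losartan arrays still differ in run day, and their 3' to 5' ratios of Gapdh were 1.28 and 2.17. The dTGR and SD control arrays differ in fluidics protocol. The part of these factors in the values was not tested.

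**Figure D3:**
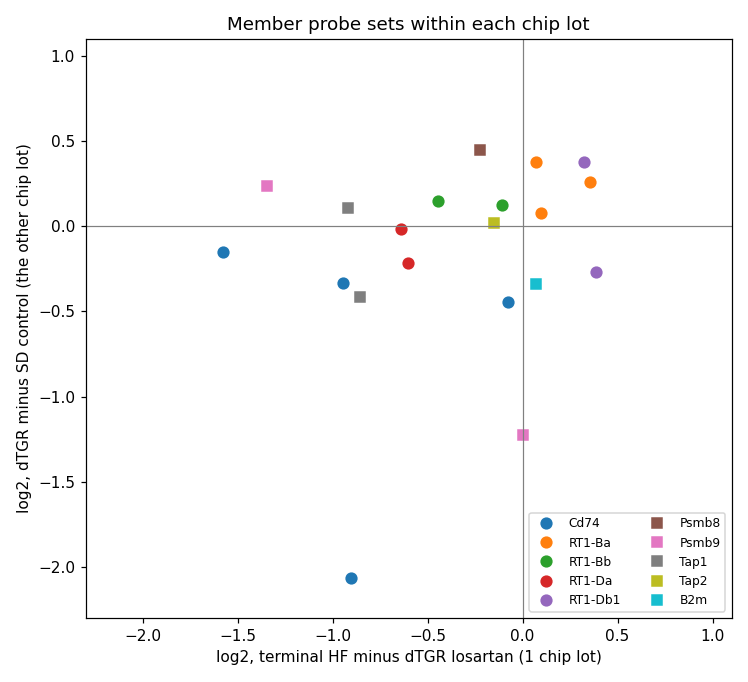
Log2 difference within each chip lot, terminal heart failure minus losartan-treated dTGR on the x axis and dTGR minus SD control on the y axis, for the 20 member probe sets with 1 gene symbol above the floor on at least 1 array, coloured by gene, with circles for Cd74 and class II genes and squares for class I pathway genes. The pairs share no array. X13044_g_at of Cd74 lies farthest left, at -1.58, and all probe sets of RT1-Ba lie right of 0.

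Terminal heart failure was the lowest of the 4 arrays for 13 of the 18 member probe sets above the floor throughout (72.2%), against 35.6% of all such probe sets, and the highest for 0, against 22.9%. In the class I pathway it was lowest for 5 of 6, with B2m the exception, and in the class II group for 8 of 12. The terminal array was also the only array of its run day, so disease state and run day cannot be told apart here.

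The other genes of the pathway did not all follow. Class I heavy chains, which bind beta-2 microglobulin and the peptide, were lower in terminal heart failure than in SD control on 4 of 14 probe sets above the floor and higher on 0 (median -0.58). Over all probe sets of that comparison 8.64% were lower and 7.67% higher, with a median of -0.11, and each list count of terminal heart failure against SD control given from here on is to be read against these shares. Some heavy chain genes are close copies of each other, so probe sets of such genes can share signal. Which of the probe sets do so was not tested. RT1-M3-1 was 2.96-fold lower (73.0 in terminal heart failure, 120 after losartan, 101 in dTGR and 216 in SD control), and RT1-S3 was 2.51-fold lower on AF029240_g_at, where its other probe sets were 1.79-fold and 1.35-fold lower. RT1-N3 was at least 3.0-fold lower, and RT1-M5 1.52-fold lower. On L23128_at of RT1-N3 the terminal array lay under the floor, so it could only be called lower. The summed intensity of all 16 heavy chain probe sets was 7436 in terminal heart failure, 9016 after losartan, 12006 in dTGR and 10081 in SD control. Bright probe sets weigh most in such a sum. Though the sum was higher in dTGR than in SD control, 0 of 13 probe sets were higher there and 3 lower (median -0.34). Over all probe sets of that comparison 8.69% were higher and 6.16% lower.

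Genes that help class II molecules to load peptide went both ways in terminal heart failure against SD control, with 1 of 7 probe sets higher and 1 lower (median -0.07). Ctss, cathepsin S, the protease that trims the invariant chain, was 2.17-fold higher, at 831 in terminal heart failure, 375 after losartan, 428 in dTGR and 384 in SD control. Ctss and Cd74 thus moved in opposite directions on the terminal array. RT1-DMb, the beta chain of the peptide exchange factor DM, was at least 2.63-fold lower on U31599_at and 1.57-fold and 1.58-fold lower on its other probe sets. The terminal array lay under the floor on U31599_at, so that probe set could only be called lower. RT1-DMa, the alpha chain, was 1.86-fold higher on Z49761_at and 1.26-fold higher on U31598_s_at. RT1-DOa, a chain of the DM inhibitor DO, had a log2 difference of -0.07.

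Among genes of class I peptide supply outside the members, 1 of 13 probe sets was higher and 1 lower in terminal heart failure than in SD control (median -0.04), close to the shares over all probe sets (7.67% and 8.64%). Psme2, a subunit of the interferon-inducible proteasome activator, was 2.40-fold lower, at 109 in terminal heart failure, 244 after losartan, 129 in dTGR and 262 in SD control. It was also 2.24-fold lower in terminal heart failure than after losartan, within 1 chip lot. Psme1, the partner subunit, was 1.49-fold lower on D45249_g_at. Pdia3, a chaperone of the peptide loading complex, was 2.62-fold higher on X12355_s_at and 1.28-fold lower on rc_AA892637_at, a probe set near the floor. Calr, another chaperone of that complex, was 1.66-fold higher on D78308_g_at, with log2 differences of -0.35 and -0.04 on its other probe sets.

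Standard proteasome subunits, whose catalytic beta subunits the immunoproteasome subunits replace, had 1 of 26 probe sets higher and 0 lower in terminal heart failure than in SD control, with a median of -0.04. The higher one was rc_AI009111_at of Psma1, at least 3.33-fold, while D90265_s_at of the same gene had a log2 difference of 0.04. SD control lay under the floor on rc_AI009111_at, so that probe set could only be called higher. Psma5 was at least 1.75-fold higher on rc_AA891383_i_at, Psma6 was 1.5-fold higher on D10755_s_at and Psma7 1.46-fold lower on D30804_at. Of interferon signalling genes, 2 of 10 probe sets were higher and 0 lower (median 0.15). Both were of Jak2, a kinase of the interferon gamma receptor, with U13396_g_at 3.18-fold higher and U13396_at at least 4.84-fold higher, and AJ000557cds_s_at 1.38-fold higher. On U13396_at the SD control array lay under the floor, so it could only be called higher. Ifngr1, the receptor chain that binds interferon gamma, was 1.63-fold higher. Irf1, a transcription factor induced by interferon gamma, was 1.32-fold lower on M34253_at. Ifng itself lay at or near the floor, at 33.8 in terminal heart failure and 25.1 in SD control on M29317_at.

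**Figure D4:**
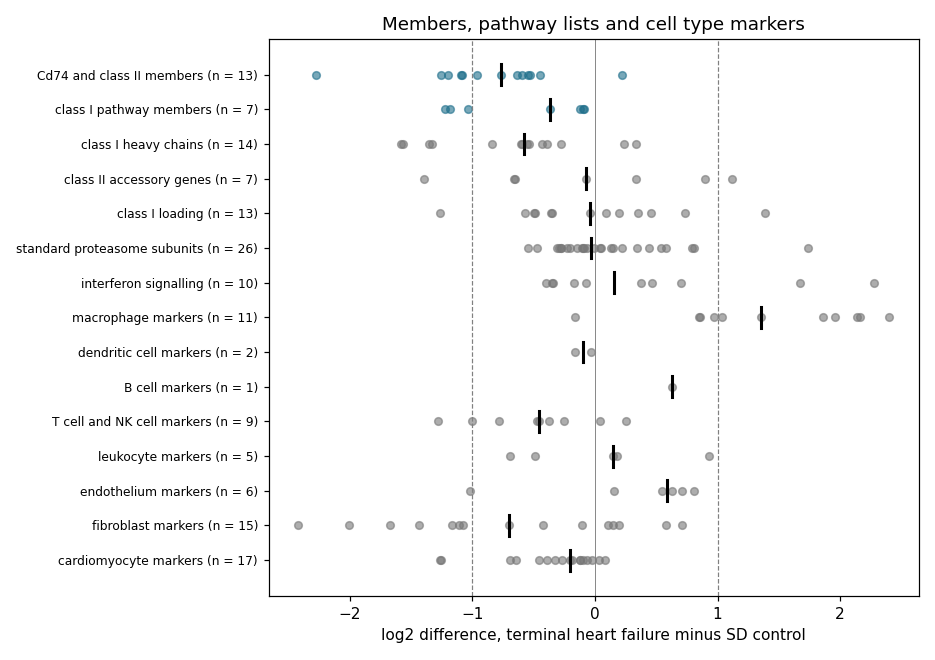
Log2 difference in terminal heart failure minus SD control for member probe sets with 1 gene symbol, other pathway lists and cell type marker lists, with n the probe sets above the floor on either array. Each point is 1 probe set, black bars are list medians and dashed lines mark 2-fold. Members have medians of -0.76 (class II and Cd74) and -0.37 (class I pathway), while macrophage markers have a median of 1.36.

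Markers of the cells that carry class II molecules did not move as 1 group. Of 11 macrophage marker probe sets above the floor in terminal heart failure or SD control, 7 were higher in terminal heart failure and 0 lower (median 1.36), for 10 of the 16 listed genes on the array. Their summed intensity was 6058 in terminal heart failure, 2061 after losartan, 3124 in dTGR and 1953 in SD control. C1qb, which encodes part of complement C1q, read 5.27-fold higher on X71127_g_at, and Lgals3, Ccl2 and Lyz2 were 4.46-fold, 4.40-fold and 3.64-fold higher. The macrophage markers Csf1r and Itgam were under the floor on all arrays. The terminal array, with the highest macrophage marker sum, had all 4 probe sets of Cd74 and 1 of the 9 class II chain probe sets above the floor past 2-fold lower than SD control.

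Lymphocyte markers were dim. For T and NK cells, 9 of 17 probe sets were above the floor in terminal heart failure or SD control, with 0 higher and 2 lower (median -0.46), and the sum was 344 in terminal heart failure, 443 after losartan, 578 in dTGR and 656 in SD control. Lck, a kinase of T cells, was 2.43-fold lower and Cd8b 2.0-fold lower. Cd2 and Klrd1 were under the floor on all arrays, and Cd3d, a chain of the T cell receptor complex, was above it in SD control alone (31.0). The B cell list had 1 of 8 genes on the array, Cd79b, at 40.1 in terminal heart failure, 12 after losartan, 78.0 in dTGR and 22.1 in SD control. The dendritic cell list had 1 of 5, Itgae, at 70.2 or less. Leukocyte markers had 0 of 5 probe sets past 2-fold, with sums of 497, 454, 518 and 541 in terminal heart failure, losartan-treated dTGR, dTGR and SD control.

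Endothelial cells and fibroblasts can express class I and, when induced, class II genes. Of 6 endothelial marker probe sets, 1 was lower in terminal heart failure than in SD control and 0 were higher (median 0.59), with sums of 733 in terminal heart failure, 725 after losartan, 676 in dTGR and 521 in SD control. Of 15 fibroblast marker probe sets, 7 were lower and 0 higher (median -0.70), with sums of 19885, 20674, 18076 and 22746 in the same order. Cardiomyocyte markers had 2 of 17 lower and 0 higher (median -0.20), with sums of 152768, 218761, 342998 and 170608. The part of any of these cell types in the values of the members was not tested.

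The genes most alike in pattern to the class II group were found by the root mean square difference over the 4 arrays between centred log2 values, against the median profile of 12 class II and Cd74 probe sets. That profile was -0.45 in terminal heart failure, -0.11 after losartan, 0.19 in dTGR and 0.31 in SD control. Its losartan value lies between members that differ. The losartan array was highest for both probe sets of RT1-Da and for X13044_g_at of Cd74. It was lowest for K02815_s_at and X07551cds_s_at of RT1-Ba and X53054_g_at of RT1-Db1. Among 3443 probe sets with 1 symbol outside the members, the closest genes were Slc4a3 (0.03), Pla2g6 (0.04), Adissp (0.04), Ddr1 (0.04) and Adap1 (0.04). For the class I pathway, with 6 probe sets, the profile was -0.27 in terminal heart failure, 0.12 after losartan, 0.08 in dTGR and 0.15 in SD control, and the closest genes were Dnpep (0.03), Id3 (0.03), Ralb (0.04), Atp2c1 (0.04) and Atp5pf (0.04). With 4 arrays many genes share any such pattern, and the measure is a description.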

How the data were processed

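Total RNA of the left ventricle had been hybridised to 4 Affymetrix rat genome arrays, 1 per group. The authors deposited 1 linear intensity per probe set and array; the software, detection calls and pooling were not given in the sources used here. The deposited intensities were already on a common scale, with trimmed means (2% left out at each end) of 199.2 to 199.6. Chip lot, run day and fluidics protocol come from deposited instrument records, per the file headers. Of 15281 deposited intensities from 1 to under 32, 13625 have 0 as first and another digit as second decimal, as if a spreadsheet had rewritten them, so values of that size are less exact than printed.

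Arrays were scaled to the same trimmed mean, a floor was put at the 40th percentile of the pooled intensities, and values were turned to log2 (Python 3.11.15, pandas 2.3.3, numpy 2.4.6). Of 8799 probe sets, 59 controls were left out; 7006 of the rest had 1 gene symbol, 308 several and 1426 none. A call needed 2-fold and at least 1 array above the floor; where the dimmer array lay under the floor, the fold is a bound. No test was made, since each group has 1 array. The members and lists were chosen with earlier results of these data known. All member probe sets are reported; of each other list, up to 4 genes with the largest difference between terminal heart failure and SD control are named, and 5 genes closest to each of the class II and class I profiles. The number of arrays limits the precision. Gene symbols come from the platform annotation, which can be old, and promoters from the RefSeq table of build GRCr8. Alternatives were other scalings, floors, thresholds and probe set rules.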

Additional observations from a re-analysis of the deposited data

How the results depend on the processing

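No paired analysis was possible because each group has 1 array, so no replicate could be left out and chip lot could not be fitted as a block. Values as deposited, quantile normalization, cyclic loess, a floor at the 25th percentile and, added after seeing the data, low values read with 1 decimal kept every count of members past 2-fold within 1.5 times of the reported one, and kept each median within the spread between probe sets of a gene divided by the square root of their number. For counts and medians 173 of 210 values under an alternative stayed so, 37 did not, and none of the 540 values of single genes (the brightest probe set with 1 symbol) moved by more than the spread between probe sets or changed the sign of a call. The brightest probe sets lay above the floor on every array, so a lower floor or the both-arrays rule returned unchanged values. Scaling to the same median shifted all of them alike within a comparison, by less than that spread. Under those settings the values thus had little room to move. Among these brightest probe sets, some calls fell short of 2-fold under the settings named in the comparisons above. For terminal heart failure they were Tap1 and Psmb9 against SD control, Psmb9 against losartan, and Cd74 and RT1-Ba against dTGR. In losartan against dTGR it was RT1-Db1. Calls of other probe sets also ended under some settings and enter here only through the counts. Scaling to the same median put the all-probe-set median of dTGR minus SD control at -0.17 in place of 0.05 and the members' median at -0.22. It left 1 lower member in terminal heart failure minus dTGR (median -0.31) and 1 in losartan minus dTGR (median 0.0861). The all-probe-set median became 0.10 in place of -0.16 in terminal heart failure minus dTGR, and 0.13 in place of -0.08 in losartan minus dTGR.

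The single higher call in 5 comparisons came from the probe set with 6 symbols. It became 0 in terminal heart failure against SD control, dTGR and losartan, and in dTGR and losartan against SD control, with several-symbol probe sets left out or with the brightest probe set of each gene (added after seeing the data). It also became 0 against SD control, in terminal heart failure, dTGR and losartan, when both arrays had to be above the floor, and 3 in each with no floor beyond 1. That choice by brightness left 4 lower members in terminal heart failure, 0 in dTGR and 1 in losartan against SD control, with 10 probe sets in place of 21. With both arrays above the floor there was 1 lower in dTGR and 3 in losartan against SD control. A floor at the 60th percentile gave a median of -0.76 in terminal heart failure minus SD control and -0.33 minus losartan, with 1 lower member in terminal heart failure minus losartan, 1 in dTGR and 3 in losartan minus SD control. At 1.5-fold, 10 members were lower in terminal heart failure than in dTGR and 8 than in losartan, 2 were higher and 8 lower in losartan than in SD control, and 2 higher and 6 lower in losartan than in dTGR. The cause of each move was not tested. Some of these settings use a smaller or larger number of probe sets by construction. Values near the floor, as for RT1-Db1 X53054_at and Psmb9 D10757_at, limit what the arrays can show.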
